A study of Homo sapiens with 15 samples.

Results

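The comparison described here sets TAp63γ overexpression against its empty vector in MCF-10A, a human mammary epithelial cell line that is immortal but forms no tumours. It comprises 6 of the 15 arrays of the series, chosen by their titles: 3 overexpression vector control arrays and 3 TAp63γ arrays, all of total RNA isolated 48 hours after retroviral or adenoviral infection. The labels do not say which virus carried which construct, and they call the replicates biological without saying whether these were separate infections, so the p-values cover only how these samples varied, which may be technical. The series also holds 3 ΔNp63α overexpression arrays, which share the vector and are used below to test where TAp63γ differs from that isoform, and 6 knockdown arrays (shRNA vector, an shRNA against the DNA-binding domain and an shRNA against the TA isoforms, 2 arrays each), which were not used. The transcript of the introduced gene was not analysed here, so the amount of TAp63γ reached in these cells is not given.

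p63, a relative of p53, binds similar DNA elements and is needed for the basal layer of stratified and glandular epithelia. Its gene has separate promoters: TA isoforms carry an N-terminal transactivation domain related to that of p53, and ΔN isoforms lack it. Splicing at the other end gives the α, β and γ forms, of which α carries a long C-terminal tail with an inhibitory domain and γ does not, so TAp63γ is known as a strong activator in reporter assays, while ΔNp63α is the main form of basal cells. MCF-10A cells carry wild-type p53.

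The levels are log2 expression values, so a difference of 1 is a 2-fold change. Each of 11963 genes was represented by 1 of the 19064 probe sets that the platform annotation gives a single symbol. Differences are log2 changes ± SE from limma, fitted over the 9 overexpression arrays with n = 3 per group, and "rose" or "fell" is used for an adjusted p below 0.05 (Benjamini-Hochberg over all genes). Of all genes, 39.9% changed with TAp63γ: 2258 rose (18.9%) and 2512 fell (21%). Cyclic loess normalization turned this order round, to 2480 higher and 2309 lower, so the near-even split has no direction. Counts of list members that rose or fell are to be read beside the 18.9% and 21% of all genes. Counts of members higher or lower than with ΔNp63α are to be read beside 18.1% and 17.4% of all genes. At 2-fold or more, 519 genes rose (4.34%) and 500 fell (4.18%). The far ends were uneven: 121 genes rose and 29 fell at least 4-fold, 47 rose and 3 fell at least 8-fold, and 7 rose and 0 fell at least 32-fold. The middle of the distribution was narrow, with a median change of −0.02 over all genes and quartiles of −0.21 and 0.17. The 3 and 3 arrays did not overlap in 2812 genes that were higher (23.5%) and 3145 that were lower (26.3%).

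Replicate arrays correlated at 0.995 to 0.998 within TAp63γ and at 0.994 to 0.998 within the vector, against 0.958 to 0.969 between these groups. The median SD per gene was 0.0981 over the TAp63γ arrays and 0.0966 over the vector arrays. Epithelial markers checked the label of the cells: averaged over 17 markers, the level was 9.99 to 10.1 on the vector and 10.3 to 10.4 on the TAp63γ arrays, against a 20th percentile of all probe sets of 5.09. Averages over 17 immune markers (5.79 to 5.81 and 5.72 to 5.74), 15 endothelial and adipocyte markers (5.20 to 5.25 and 5.22 to 5.26) and 15 mesenchymal markers (6.27 to 6.31 and 6.31 to 6.34) lay between that percentile and the array medians of 6.96 to 6.98. Of the 17 immune markers, 0 rose by limma (0 at an unadjusted p below 0.05). CD14 was the 1 that fell (5.88%, beside 21% of all genes). PTPRC, the defining marker of leukocytes, did not pass (−0.08 ± 0.11, adjusted p = 0.605). A lack of change between the groups does not show whether such cells were present. The 3′ minus 5′ difference of the actin control transcript, a sign of RNA integrity, was 0.0772 ± 0.0663 (SD, n = 3) with TAp63γ and 0.17 ± 0.0578 with the vector. That of the GAPDH control transcript was −0.0293 ± 0.0496 with TAp63γ and 0.0132 ± 0.0328 with the vector. The part of RNA integrity in the changes below was not tested.

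**Figure D1:**
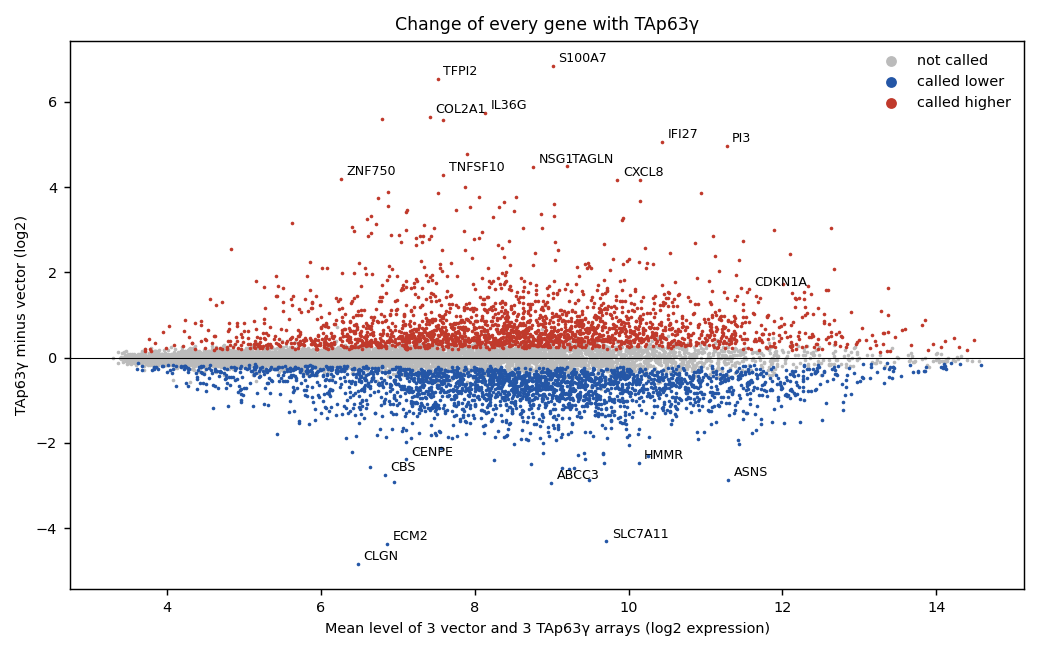
Each point is 1 of 11963 genes, with the mean log2 level of the 3 vector and 3 TAp63γ arrays on the x axis and the log2 change with TAp63γ on the y axis; red genes were called higher (2258), blue lower (2512) and grey were not called. The largest rise (S100A7, 6.85) exceeds the largest fall (CLGN, −4.83), and more genes lie above 4 than below −4.

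Groups of genes that moved together were set beside their promoter sequences and the regulatory elements known for such genes. RefSeq promoters (GRCh38.p14, 250 bases before to 50 after the start, the first promoter listed for a gene) matched 9563 of the 11963 genes. Sites outside this window were not searched, so a promoter without a match may belong to a gene with a site elsewhere. The core of the interferon-stimulated response element, searched on both strands as GAAA, any 2 bases and GAAA, was found in 24 of 39 promoters of interferon response genes, and in 284 (2.97%) of all promoters. A form of the NF-kB site, GGG followed by any 2 bases and TTTCC, stood in 14 of 28 promoters of inflammatory genes and in 201 (2.1%) of all. The C/EBP-ATF element, TGATGNAA, stood in 9 of 30 promoters of the ATF4 and serine synthesis list and in 215 (2.25%) of all. The cell-cycle gene homology region, TTTGAA, stood in 23 of 33 promoters of mitotic genes and in 1050 (11%) of all. A p53 family consensus half-site was found in 4 of 31 promoters of p53 response genes, those of PLK2, AEN, EI24 and RPS27L, and in 532 (5.56%) of all. Among genes that rose at least 2-fold, 28 of 411 promoters held this half-site (6.81%), and among those that fell as much, 26 of 423 (6.15%). Holding a motif did not go with a rise or fall in every gene. Of the list promoters with the interferon element, 23 of 24 belonged to genes that rose, but of those with the NF-kB site 7 of 14 did, 1 fell and 6 were not called. Of those with the C/EBP-ATF element, 8 of 9 belonged to genes that fell, and of those with the cell-cycle element 18 of 23. Among all measured list members, with or without the element, 43 of 49 interferon and 24 of 34 inflammatory genes rose. Likewise, 34 of 36 members of the ATF4 list and 29 of 40 mitotic genes fell. Whether the element went with the direction within a list was not tested. Over all genes, the interferon element stood in 7.79% of promoters of genes that rose and 2.6% of those that fell at least 2-fold, and the NF-kB site in 4.14% and 0.946%. The C/EBP-ATF element stood in 2.43% and 4.02%, and the cell-cycle element in 9% and 17.3%. These shares over all genes include the list members counted above, so they are not a separate check. Matches of different motifs shared bases in few promoters, at most 6 for any pair. The motifs were chosen with the gene changes known, and a match is a description of the letters only.

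The windows below show these elements, in capitals, in genes on which the results turn; each runs 5′ to 3′ along the gene's strand and lies before the start. ISG15 and IFIT1 stand for the interferon genes that rose, CXCL1 and TNFAIP3 for the inflammatory genes that rose, and ASNS, TOP2A and HMMR for the amino acid and mitotic genes that fell.
ISG15 (chr1:1013340-1013449, plus strand): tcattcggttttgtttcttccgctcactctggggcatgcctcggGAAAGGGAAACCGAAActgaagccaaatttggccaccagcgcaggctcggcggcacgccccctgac
IFIT1 (chr10:89392470-89392579, plus strand): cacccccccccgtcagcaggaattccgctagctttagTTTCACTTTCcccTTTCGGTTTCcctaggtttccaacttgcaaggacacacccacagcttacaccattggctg
CXCL1 (chr4:73869264-73869373, plus strand): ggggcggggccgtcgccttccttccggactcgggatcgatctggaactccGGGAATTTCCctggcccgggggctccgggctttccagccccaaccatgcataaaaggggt
TNFAIP3 (chr6:137867149-137867258, plus strand): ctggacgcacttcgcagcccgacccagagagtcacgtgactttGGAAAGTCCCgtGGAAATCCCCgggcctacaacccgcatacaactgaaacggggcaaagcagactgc
ASNS (chr7:97872417-97872526, minus strand): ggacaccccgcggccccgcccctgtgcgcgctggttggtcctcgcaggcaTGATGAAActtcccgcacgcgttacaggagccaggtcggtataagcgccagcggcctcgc
TOP2A (chr17:40417988-40418097, minus strand): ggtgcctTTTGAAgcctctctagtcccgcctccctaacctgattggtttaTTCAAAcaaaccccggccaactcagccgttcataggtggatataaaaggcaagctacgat
HMMR (chr5:163460522-163460631, plus strand): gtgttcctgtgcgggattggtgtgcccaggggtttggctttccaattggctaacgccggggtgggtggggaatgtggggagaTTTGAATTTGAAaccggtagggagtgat
The windows of ISG15, IFIT1, TNFAIP3, TOP2A and HMMR each hold 2 matches, which overlap in ISG15 and adjoin in HMMR, and those of CXCL1 and ASNS hold 1.

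The 15 genes with the largest rises with TAp63γ were of varied kinds. S100A7 (psoriasin), an antimicrobial protein of squamous epithelia, was at 5.24, 5.92 and 5.61 on the vector arrays and at 12.43, 12.37 and 12.52 on the TAp63γ arrays. All vector arrays lay below the array medians and all TAp63γ arrays far above them (6.85 ± 0.16, adjusted p = 3.39e-10, 115-fold). The Kunitz-type protease inhibitor TFPI2 went from 4.03, 4.31 and 4.41 to 10.78, 10.90 and 10.69 (6.54 ± 0.12). IL36G, an epithelial cytokine of the interleukin-1 family, went from 5.61, 4.66 and 5.53 to 10.97, 10.99 and 11.06 (5.74 ± 0.20). Its vector arrays were the more scattered, with replicate 2 the lowest, and lay far below every TAp63γ array. COL2A1, the chain of cartilage type II collagen, went from 4.63, 4.74 and 4.41 to 10.33, 10.03 and 10.36 (5.65 ± 0.11), from below the 20th percentile of the arrays to the upper part of the range. Also among the 15 largest rises were the collagenase MMP1 (5.59 ± 0.15) and the stromelysin MMP10 (5.57 ± 0.10), the elastase inhibitor PI3 (4.97 ± 0.15), the chemokines CXCL14 (4.78 ± 0.17), CXCL8 (4.17 ± 0.17) and CXCL1 (4.15 ± 0.091), and the interferon-induced IFI27 (5.06 ± 0.076). TAGLN, an actin-binding protein of smooth muscle (4.49 ± 0.10), NSG1, a protein of endosomal trafficking (4.48 ± 0.13), TNFSF10, the death ligand TRAIL (4.28 ± 0.11), and ZNF750, a transcription factor of epidermal differentiation (4.20 ± 0.13), complete them. The vector means of TFPI2, COL2A1, MMP1, MMP10 and ZNF750 lay below 5.09, the 20th percentile, so their rises are read as lower bounds too.

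The 15 largest falls were likewise in genes of varied kinds. CLGN (calmegin), a chaperone of the endoplasmic reticulum, was at 9.28, 8.45 and 8.96 on the vector and 4.0, 4.09 and 4.10 on the TAp63γ arrays (−4.83 ± 0.19, adjusted p = 1.26e-08). ECM2, an extracellular matrix protein, went from 9.33, 8.82 and 8.99 to 4.58, 4.77 and 4.69 (−4.37 ± 0.15). Every TAp63γ array of both genes lay below the 20th percentile, so the size of these falls may be understated and is read as a lower bound. SLC7A11, which imports cystine for glutathione synthesis, was among the more abundant transcripts on the vector arrays at 12.02, 11.67 and 11.91 and stood at 7.27, 7.88 and 7.52 with TAp63γ (−4.31 ± 0.16, lower by 19.8-fold). Further large falls were in the export pump ABCC3 (−2.94 ± 0.094), the membrane adaptor ANK2 (−2.92 ± 0.13), the secreted glycoprotein STC2 (−2.88 ± 0.09), CTNNAL1, a relative of α-catenin (−2.58 ± 0.12), IFT74, a protein of intraflagellar transport (−2.57 ± 0.16), the chromatin tether PSIP1 (−2.50 ± 0.19) and the coagulation inhibitor TFPI (−2.46 ± 0.15). HSPA13, a member of the HSP70 family, fell with a large spread, from 11.05, 10.04 and 10.67 to 7.21, 8.63 and 8.14 (−2.59 ± 0.38). TFPI and TFPI2, related inhibitors, thus moved in opposite directions.

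**Figure D2:**
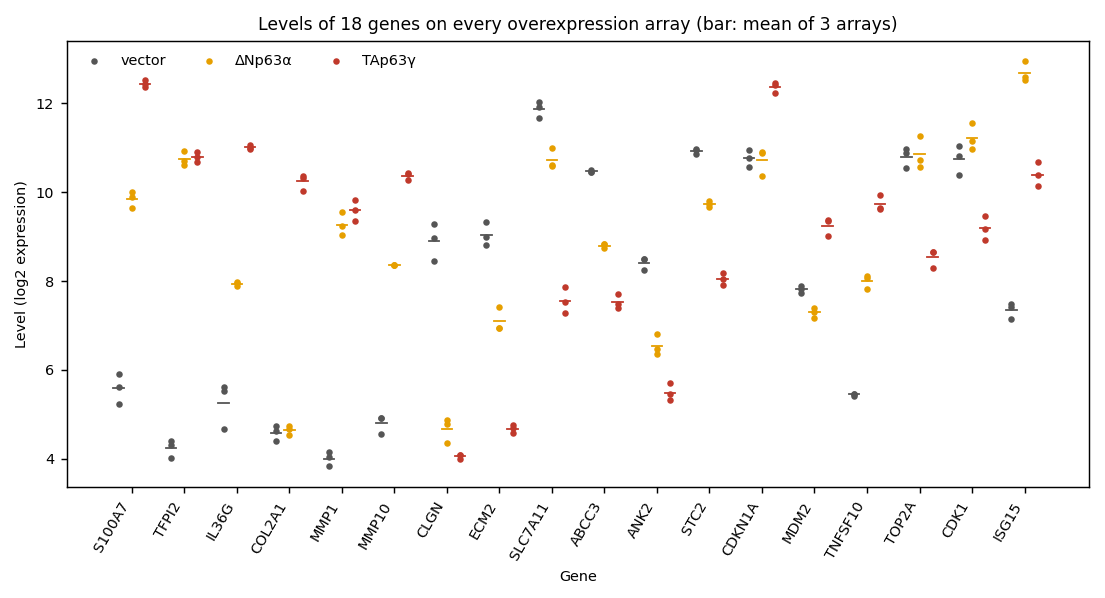
Points give the log2 level of 18 genes on each of the 9 overexpression arrays (grey vector, orange ΔNp63α, red TAp63γ), and bars the mean of 3 arrays. The TAp63γ and vector arrays do not overlap for any of the 18 genes, and COL2A1 is high on the TAp63γ arrays only.

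Genes of the p53 response include regulators of arrest, death and repair. Of 35 measured p53 response genes, 19 rose and 3 fell, with a median change of 0.38 beside −0.02 over all genes. CDKN1A, the cell-cycle inhibitor p21, was at 10.57, 10.95 and 10.76 on the vector and 12.45, 12.23 and 12.40 on the TAp63γ arrays (1.60 ± 0.15, adjusted p = 8.12e-06, 3.03-fold). MDM2, the ubiquitin ligase that limits p53, went from 7.82, 7.89 and 7.72 to 9.02, 9.37 and 9.36 (1.44 ± 0.11). Every TAp63γ array was above every vector array for both genes. The largest rises of the list were in PIDD1, a death-domain scaffold (2.28 ± 0.11), the kinase PLK2 (2.14 ± 0.091) and the oxidoreductase TP53I3 (1.63 ± 0.099). BAX, which permeabilizes mitochondria, rose by 1.30 ± 0.14, and the growth arrest gene GADD45A by 0.76 ± 0.081.

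Other members fell or did not pass. CCNG1, a cyclin G gene known as a p53 target, fell (−0.85 ± 0.15). The death receptor FAS did not pass (−0.14 ± 0.10, adjusted p = 0.3), nor did the stress cytokine GDF15 (−0.18 ± 0.10, adjusted p = 0.183) or ZMAT3, an RNA-binding protein (−0.18 ± 0.16, adjusted p = 0.427). GDF15 was at 10.92, 11.20 and 11.03 on the vector and 10.92, 10.76 and 10.91 on the TAp63γ arrays, and the groups overlapped. Against ΔNp63α, 24 of 35 members were higher with TAp63γ and 3 lower, beside 18.1% and 17.4% of all genes in this direct test. TP53I3, for example, was at 9.77, 9.78 and 9.42 with ΔNp63α, 12.29, 12.26 and 12.27 with TAp63γ and 10.60, 10.70 and 10.62 with the vector, and the isoforms differed by 2.62 ± 0.099. MDM2 differed between them by 1.95 ± 0.11 and CDKN1A by 1.65 ± 0.15.

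Apoptosis genes changed in both directions, with more rises. Of 15 BCL2 family genes, 6 rose (40%) and 1 fell (6.67%), beside 18.9% and 21% of all genes. The effectors BAX and BAK1 (1.06 ± 0.088) rose, as did BID, which links death receptors to mitochondria (0.81 ± 0.15), and the NF-kB-dependent survival protein BCL2A1 (1.23 ± 0.065). BCL2L11 (BIM) did not pass (−0.01 ± 0.076), nor did BCL2 (−0.09 ± 0.079) or BCL2L1 (−0.21 ± 0.082). The survival protein MCL1 was lower by the probe set used (−0.32 ± 0.053), but the mean of all its probe sets did not pass. Of 21 death receptor and caspase genes, 7 rose (33.3%), 3 fell (14.3%) and 11 were not called, with a median of 0.14. TNFSF10 went from 5.42, 5.46 and 5.47 to 9.93, 9.64 and 9.62, the largest rise of that list (19.4-fold), and CFLAR, an inhibitor of caspase 8, rose by 1.74 ± 0.083. Caspase 1, the inflammatory caspase, rose by 0.92 ± 0.085, while XIAP, an inhibitor of executioner caspases, fell (−0.76 ± 0.11). The receptor TNFRSF10B did not pass (0.12 ± 0.095, adjusted p = 0.367), and neither did CASP8 (0.22 ± 0.11, adjusted p = 0.144).

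Cell-cycle genes divided by phase. Of 40 genes of G2/M and mitosis, 29 fell and 2 rose, with a median of −0.62. TOP2A, the topoisomerase that untangles sister chromatids, was at 10.97, 10.54 and 10.87 on the vector and 8.65, 8.66 and 8.29 on the TAp63γ arrays (−2.26 ± 0.18). CDK1, the kinase that drives entry into mitosis, went from 11.03, 10.38 and 10.81 to 8.93, 9.46 and 9.18 (−1.55 ± 0.20). No TAp63γ array reached the lowest vector array, and the gap was wider in TOP2A. HMMR, a spindle-associated protein, fell by 2.46 on the log2 scale, and the kinetochore genes CENPE (−2.38 ± 0.11) and CENPF (−2.0 ± 0.11) fell. Smaller falls were in cyclin B1 (CCNB1, −0.59 ± 0.067), AURKA (−0.65 ± 0.12) and PLK1 (−0.60 ± 0.11), kinases of the spindle poles. PTTG1 (securin), which guards sister chromatid cohesion, was 1 of the 2 members that rose (1.18 ± 0.065). CDC20, an activator of the anaphase-promoting complex, did not pass (−0.05 ± 0.16, adjusted p = 0.834).

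Among 40 genes for entry into S phase and replication, 18 rose and 2 fell, with a median of 0.29. GINS1, a subunit of the replicative helicase (1.04 ± 0.093), the replication clamp PCNA (0.89 ± 0.12) and the flap endonuclease FEN1 (0.89 ± 0.093) rose. The primase subunit PRIM1 (−1.08 ± 0.10) and RFC4, a subunit of the clamp loader (−0.99 ± 0.084), fell. CDC6, which loads the helicase, did not pass (−0.24 ± 0.11, adjusted p = 0.11), nor did thymidylate synthase (TYMS, −0.10 ± 0.081). Among G1 cyclins and CDK inhibitors, 9 of 21 rose and 3 fell: cyclins CCND1 (0.79 ± 0.077), CCND2 (1.13 ± 0.11) and CCNE1 (0.87 ± 0.077) rose, and the inhibitor CDKN1B (p27) fell (−0.94 ± 0.20). CDKN1C (p57) rose by 1.60 ± 0.11 in the probe set used, but another probe set of this gene was called lower, so its direction is uncertain. Of 27 DNA repair and checkpoint genes, 8 fell (29.6%) and 2 rose (7.41%), beside 21% and 18.9% of all genes. The other 17 were not called, and the median was −0.11. Among those that fell were RAD51C (−1.03 ± 0.093), the checkpoint kinase ATM (−0.89 ± 0.096) and BRCA1 (−0.68 ± 0.081).

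Set directly against ΔNp63α, 35 of 40 mitotic genes were lower with TAp63γ and 1 higher, with a median difference of −0.89. ASPM, which organizes spindle poles, was at 10.82, 10.39 and 10.66 with the vector, 11.16, 11.04 and 11.64 with ΔNp63α and 8.19, 8.32 and 8.24 with TAp63γ, an isoform difference of −3.03 ± 0.15. The TAp63γ arrays were the lowest of the 9 for this gene. SMC4, a condensin subunit (−2.58 ± 0.22), the kinesin KIF18A (−2.50 ± 0.21) and CENPE (−2.54 ± 0.11) also stood among the 10 genes furthest below ΔNp63α. For the G1/S list, 23 of 40 genes were lower with TAp63γ than with ΔNp63α and 3 higher.

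Clustered histone genes, whose probe sets can cross-hybridize between near-identical copies, included 8 of 19 that rose and 0 that fell by limma (1 lower at an unadjusted p below 0.05). Of the 19, 7 had means below the 20th percentile with both the vector and TAp63γ. H2BC12 rose by 2.19 ± 0.09, H1-2, a linker histone, by 1.89 ± 0.084, and H2BC5 by 1.71 ± 0.079. H2AC6 did not pass (−0.24 ± 0.13, adjusted p = 0.179). Against ΔNp63α, 9 of 19 were higher with TAp63γ and 0 lower (0 unadjusted).

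**Figure D3:**
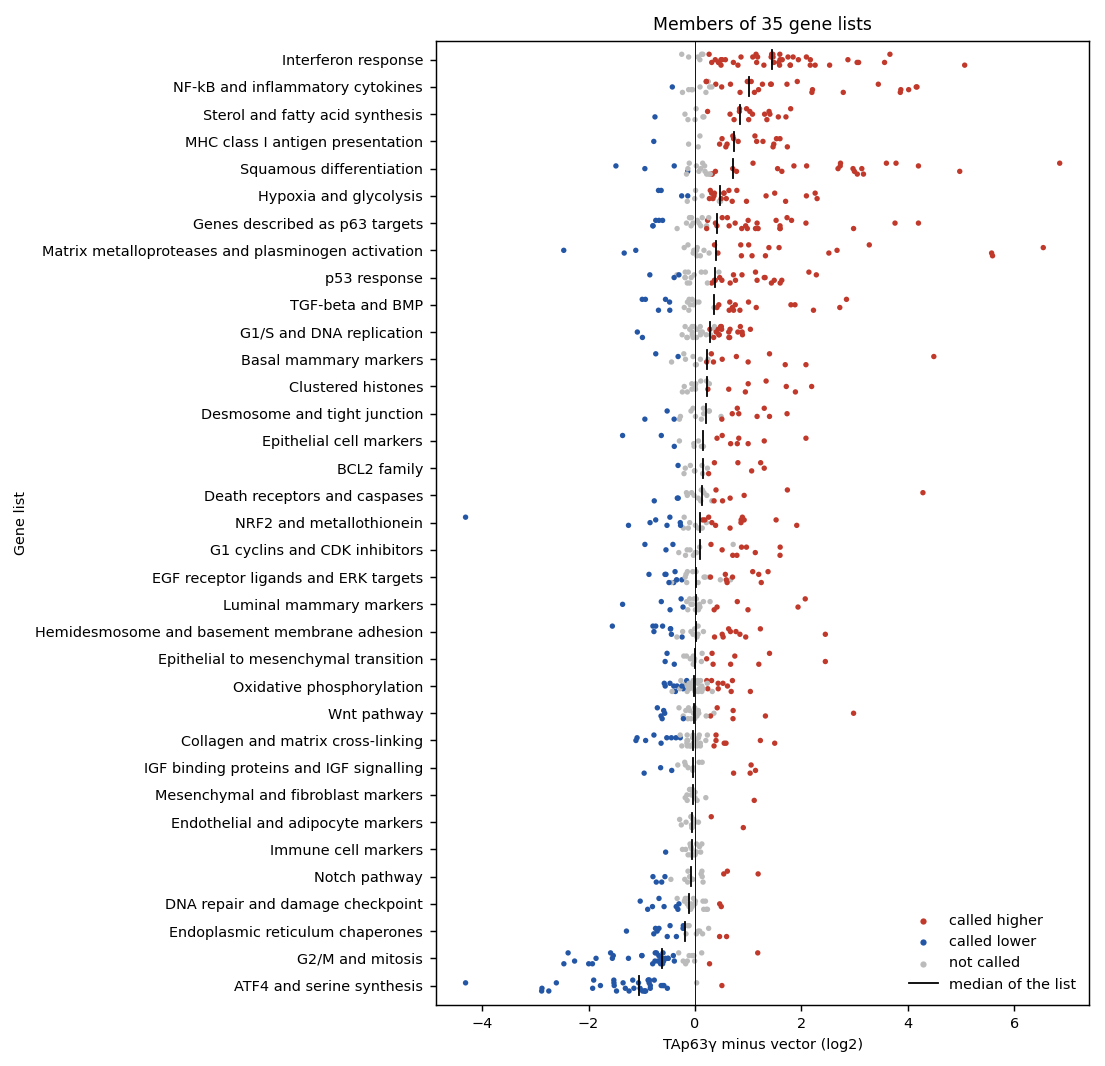
Each point is the log2 change of 1 gene with TAp63γ against the vector, in rows by gene list; red points were called higher, blue lower, grey not called, and the black bar is the median of the list. The rows are ordered by their medians, from −1.05 for the ATF4 and serine synthesis list at the bottom to 1.44 for the interferon response at the top.

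The list of ATF4 targets and serine synthesis fell almost throughout. ATF4 is the transcription factor of the integrated stress response, which raises amino acid transporters, amino acid synthesis and tRNA charging when amino acids are short. Of 36 measured members, 34 fell and 1 rose, with a median of −1.05, and 19 of them fell at least 2-fold (4.18% of all genes did). ASNS, asparagine synthetase, was at 12.70, 12.80 and 12.70 on the vector and 9.77, 9.91 and 9.90 on the TAp63γ arrays (−2.87 ± 0.081, adjusted p = 1.39e-09). Its replicates were close within each group and nearly 3 units apart between groups. Of the enzymes of serine synthesis, PHGDH went from 10.38, 10.69 and 10.49 to 8.03, 7.77 and 7.96 (−2.60 ± 0.13) and PSAT1 fell (−1.90 ± 0.13). CBS, the entry of transsulfuration, went from 8.06, 8.46 and 8.11 to 5.67, 5.31 and 5.41 (−2.75 ± 0.15). The pseudokinase TRIB3 (−1.92 ± 0.074), the glutathione-degrading CHAC1 (−1.52 ± 0.12) and the stress factor DDIT3 (−0.98 ± 0.094) fell. The transcript of ATF4 itself, named after its values were seen, also fell (−0.86 ± 0.078).

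ATF3, a stress factor often raised with ATF4, was the member that rose (0.51 ± 0.081), and VLDLR, a lipoprotein receptor, did not pass (0.03 ± 0.13). Between isoforms, 26 of 36 members were lower with TAp63γ than with ΔNp63α and 1 higher. SLC7A11 was at 10.60, 10.59 and 10.99 with ΔNp63α, between the vector and TAp63γ, an isoform difference of −3.17 ± 0.16. PHGDH was at 9.48, 9.46 and 9.05 with ΔNp63α (−1.41 ± 0.13 between isoforms). CBS was at 6.07, 6.03 and 5.62, nearer to its level with TAp63γ than to the vector (−0.44 ± 0.15 between isoforms, adjusted p = 0.0354). Its TAp63γ levels lay close above the 20th percentile of 5.09, where differences may be compressed. Of 20 chaperones and factors of the endoplasmic reticulum, 10 fell and 2 rose, with a median of −0.19. SEL1L, an adaptor of the ubiquitin ligase for misfolded proteins (−1.29 ± 0.12), and the chaperones HSP90B1 (−0.74 ± 0.095) and DNAJB9 (−0.68 ± 0.15) fell, as did XBP1, the transcription factor of the unfolded protein response (−0.47 ± 0.084).

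Many genes of squamous differentiation, the program by which keratinocytes build the cornified layer, rose with TAp63γ, but not all. Of 39 measured members, 23 rose, 18 of them at least 2-fold, and 4 fell, with a median of 0.71. ZNF750 went from 4.14, 4.07 and 4.28 to 8.12, 8.64 and 8.31 (4.20 ± 0.13). Involucrin (IVL), a scaffold of the cornified envelope, went from 6.40, 6.37 and 6.37 to 9.45, 9.22 and 9.37 (2.97 ± 0.078). Both lay below the array medians with the vector and above them on every TAp63γ array. The small proline-rich proteins SPRR1A (2.69 ± 0.16) and SPRR1B (2.73 ± 0.12) and the calprotectin subunits S100A8 (3.05 ± 0.079) and S100A9 (2.99 ± 0.093) rose. SERPINB3, a protease inhibitor whose near-identical neighbour may share its signal, rose by 3.78 ± 0.10. KRT16, a keratin of activated keratinocytes, rose by 1.55 ± 0.078.

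Other members fell or did not pass. KLF4, a transcription factor of the barrier (−1.49 ± 0.18), the envelope plakin PPL (−0.94 ± 0.082) and cornulin (CRNN, −0.39 ± 0.09) fell. Filaggrin, which bundles keratins in the cornified layer, was called lower by little (FLG, −0.14 ± 0.049) and lost its call when any 1 of the 9 arrays was left out (−0.15 to −0.12). The remaining 12 members were not called, among them SPRR3 (0.29 ± 0.12). Also uncalled, and named after their values were seen, were keratin 1 (KRT1, −0.11 ± 0.069), corneodesmosin (CDSN, 0.07 ± 0.093), the late envelope protein LCE2B (0.14 ± 0.11) and transglutaminase 3 (TGM3, −0.13 ± 0.075). Against ΔNp63α, 20 of 39 members were higher with TAp63γ and 7 lower, beside 18.1% and 17.4% of all genes. The lower count is near the share of all genes and shows nothing about the list. Involucrin (IVL) was at 6.68, 6.71 and 6.64 with ΔNp63α, close to the vector, and the isoforms differed by 2.67 ± 0.078. S100A8 was at 14.04, 14.03 and 14.13 with ΔNp63α and 14.03, 14.29 and 14.15 with TAp63γ; this difference did not pass (0.09 ± 0.079, adjusted p = 0.439). Both groups lay near the highest value of the arrays, 14.7, where a difference may not be measurable.

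Of 43 measured genes described as p63 targets in the literature, 25 rose and 5 fell, with a median of 0.41. AQP3, a water and glycerol channel of the epidermis, went from 6.77, 6.65 and 6.56 to 10.38, 10.39 and 10.49 (3.76 ± 0.095), and the signalling ligand WNT4 from 5.22, 4.95 and 4.65 to 8.09, 7.77 and 7.89 (2.98 ± 0.13). The Notch ligand JAG2 rose by 1.19 ± 0.14, the basal keratins KRT14 by 2.08 ± 0.11 and KRT5 by 1.0 ± 0.11, the desmosomal protein PERP by 1.17 ± 0.082 and IGFBP3, which binds insulin-like growth factors, by 1.14 ± 0.14. FGFR3, a growth factor receptor, rose by 0.75 ± 0.098, while JAG1 did not pass (0.14 ± 0.17, adjusted p = 0.585). NOTCH1 (−0.79 ± 0.13) and the hemidesmosomal integrin subunit ITGB4 (−0.74 ± 0.15) fell. WNT4 was at 5.02, 4.91 and 4.82 with ΔNp63α, close to the vector, and AQP3 at 10.39, 10.40 and 10.17, close to TAp63γ (0.10 ± 0.095 between isoforms, adjusted p = 0.445).

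Adhesion genes went both ways. Of 28 hemidesmosome and basement membrane genes, 10 rose (35.7%) and 9 fell (32.1%), with a median of 0.02. Fibronectin (FN1) went from 9.39, 9.13 and 9.39 to 11.72, 11.87 and 11.68 (2.45 ± 0.10), and was at 9.12, 9.07 and 9.26 with ΔNp63α (2.60 ± 0.10 between isoforms). The laminin chain LAMB1 (−1.55 ± 0.11), the linker DST (−0.61 ± 0.085) and integrin β1 (ITGB1, −0.46 ± 0.078) fell, the anchoring collagen COL7A1 rose by 1.23 ± 0.11 and laminin LAMB3 by 0.51 ± 0.13, and integrin α6 did not pass (ITGA6, −0.04 ± 0.15). ITGB1 lost its call when all its probe sets were averaged. Of 22 desmosome and tight junction genes, 8 rose and 3 fell, among the former claudin 1 (CLDN1, 1.73 ± 0.13), JUP, the plaque protein plakoglobin (1.30 ± 0.12), and P-cadherin (CDH3, 1.40 ± 0.12). E-cadherin did not pass (CDH1, 0.12 ± 0.079). Of 20 basal mammary markers, 10 rose and 2 fell. Of 26 luminal markers, 6 rose (23.1%) and 5 fell (19.2%), near the 18.9% and 21% of all genes, so these counts show nothing about the list. As single genes, the luminal transcription factor EHF (2.07 ± 0.093) rose, EPCAM (−1.36 ± 0.16) fell and GATA3 did not pass (0.05 ± 0.085).

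The contractile genes of the basal list were uneven. TAGLN was at 6.89, 7.12 and 6.85 on the vector and 11.50, 11.39 and 11.41 on the TAp63γ arrays, with no overlap and a gap above 4 units. Smooth muscle actin (ACTA2) rose by 1.69 ± 0.13 and the myosin kinase MYLK by 0.31 ± 0.075, whereas calponin (CNN1, 0.01 ± 0.087) and the oxytocin receptor OXTR (0.03 ± 0.097) did not pass. MYLK, CNN1 and OXTR were named after their values were seen. MYL9, a regulatory light chain of myosin outside the list and named for its isoform difference, went from 5.24, 5.59 and 5.36 to 9.11, 8.62 and 8.69 (3.41 ± 0.13). Vimentin did not pass (VIM, −0.21 ± 0.091). With ΔNp63α, TAGLN was at 6.92, 6.89 and 6.66 and MYL9 at 5.63, 5.48 and 5.50, both close to the vector, and the isoforms differed by 4.61 ± 0.10 and 3.27 ± 0.13. Of 15 fibroblast markers, 1 rose, FAP, a membrane protease (1.11 ± 0.084), and 0 fell by limma (1 lower at an unadjusted p below 0.05). Of 21 genes of the mesenchymal transition, 8 rose (38.1%) and 3 fell (14.3%), beside 18.9% and 21% of all genes. The median of this list was −0.007. Among its members, CDH2 did not pass (−0.16 ± 0.091) and the receptor AXL rose by 1.20 ± 0.11.

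Inflammatory genes rose. Of 34 NF-kB target and cytokine genes, 24 rose and 1 fell, with a median of 1.02. CXCL8, the neutrophil chemokine interleukin-8, went from 7.95, 7.43 and 7.92 to 11.71, 12.05 and 12.06 (4.17 ± 0.17), and interleukin-1β (IL1B) from 8.99, 9.06 and 9.0 to 12.90, 12.77 and 12.94 (3.86 ± 0.094). The levels were separated by more than 3 units in each. IL1RN, the antagonist of the interleukin-1 receptor, rose by 3.87 ± 0.12, and PTGS2, the inducible cyclooxygenase, by 4.01 ± 0.23. The feedback inhibitors TNFAIP3 (2.21 ± 0.10) and NFKBIA (0.98 ± 0.11) rose as well. CCL20, a chemokine for lymphocytes, was already high on the vector arrays at 10.34, 9.88 and 10.14 and did not pass at 10.22, 10.53 and 10.42 (0.27 ± 0.14, adjusted p = 0.164). IL6 was called higher (0.21 ± 0.063), but its levels lay below 5.1 on all 6 arrays and the change was −0.022 with values floored at the 20th percentile. It also lost the call without vector replicate 1 (0.18) or TAp63γ replicate 3 (0.20). Against ΔNp63α, 13 of 34 members were higher with TAp63γ and 4 lower: IL1B was at 10.83, 10.74 and 10.50 with ΔNp63α (2.18 ± 0.094 between isoforms), and CCL20 at 12.06, 12.13 and 12.50 (−1.84 ± 0.14).

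Interferon response genes also rose, to a smaller extent than with ΔNp63α. Of 49 measured genes, 43 rose, 31 of them at least 2-fold, and 0 fell by limma (1 lower at an unadjusted p below 0.05). The median was 1.44. ISG15, a ubiquitin-like modifier, was at 7.48, 7.16 and 7.42 with the vector, 10.13, 10.67 and 10.39 with TAp63γ and 12.52, 12.59 and 12.95 with ΔNp63α. IFIT1, which binds foreign RNA, was at 4.61, 5.37 and 5.31, 8.61, 8.66 and 8.69 and 11.17, 11.24 and 10.94 in the same order. In both, the TAp63γ arrays stood between the other groups and touched neither. Directly compared, 39 of 49 members were lower with TAp63γ than with ΔNp63α and 0 higher by limma (0 unadjusted), with a median difference of −0.90. IFITM1, which blocks viral entry, had the largest such gap (−3.33 ± 0.11), followed by IFI44L (−3.27 ± 0.087). IFI27 was near the ΔNp63α level, at 12.92, 12.96 and 13.02 against 13.38, 13.42 and 13.20 (−0.36 ± 0.076). IRF7, a transcription factor of the response, rose by 1.44 ± 0.11 and MX1, an antiviral GTPase, by 1.75 ± 0.13, while IFI16 did not pass (−0.25 ± 0.097, adjusted p = 0.064).

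Of 19 genes of MHC class I antigen presentation, 15 rose and 1 fell, with a median of 0.73. HLA-B rose by 1.73 ± 0.066, the immunoproteasome subunit PSMB9 by 1.60 ± 0.13, the peptide transporter TAP1 by 1.47 ± 0.10 and the light chain B2M by 0.58 ± 0.055, and the chaperone CANX fell (−0.77 ± 0.058). Probe sets of class I genes can share signal. In this list, 1 gene was higher and 6 lower with TAp63γ than with ΔNp63α.

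**Figure D4:**
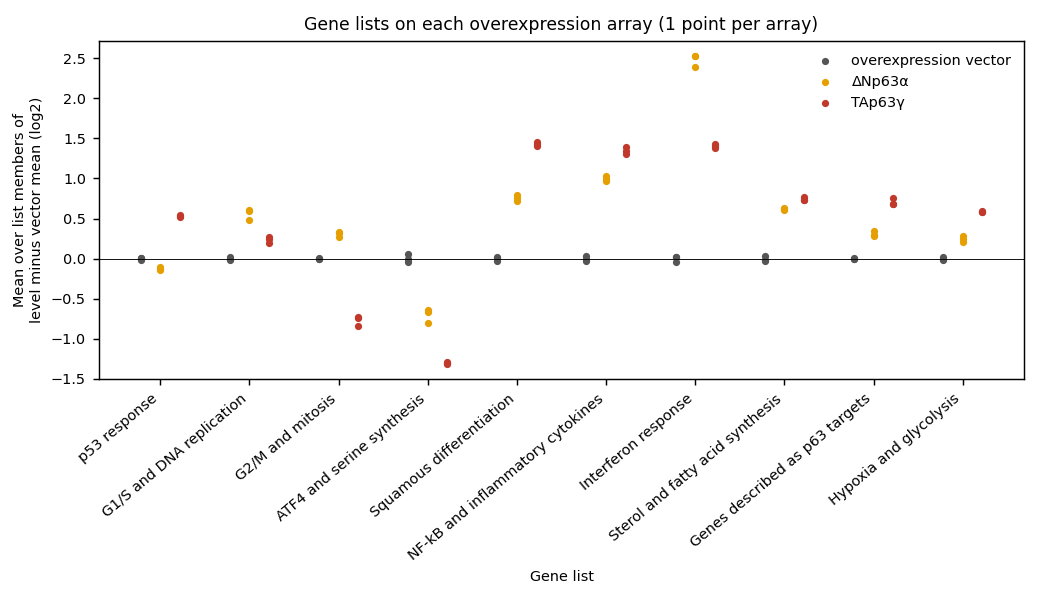
Each point is 1 overexpression array, and its height is the mean, over the members of a gene list, of the log2 level minus the mean of the vector arrays. The TAp63γ arrays (red) are below the vector for the ATF4 and mitotic lists and above it for the others shown. For the interferon list and the G1/S and DNA replication list they lie between the vector and ΔNp63α arrays.

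Proteases of the matrix and regulators of plasminogen rose in part. Of 28 genes, 15 rose, 11 of them at least 2-fold, and 3 fell. MMP10 went from 4.56, 4.93 and 4.91 to 10.27, 10.42 and 10.41, and MMP9, a gelatinase, rose by 1.32 ± 0.083. PLAU, the urokinase plasminogen activator, rose by 2.67 ± 0.092, its receptor PLAUR by 1.58 ± 0.10 and the tissue activator PLAT by 2.51 ± 0.09. SERPINA1 (antitrypsin) rose by 3.27 ± 0.17. The membrane proteases ADAM8 (−1.33 ± 0.15) and ADAM9 (−1.11 ± 0.14) fell. Of 38 collagen and cross-linking genes, 7 rose (18.4%) and 9 fell (23.7%), near the 18.9% and 21% of all genes. COL2A1 was outside that list. It was at 4.68, 4.54 and 4.75 with ΔNp63α, close to the vector, and its isoform difference was the largest of all genes whose arrays did not overlap (5.59 ± 0.11).

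Growth factor pathways showed mixed changes. In the TGF-beta and BMP list, 15 of 31 members rose (48.4%) and 6 fell (19.4%). INHBA, the activin A subunit, went from 5.87, 6.17 and 5.69 to 8.78, 8.67 and 8.80 (2.84 ± 0.19), and the helix-loop-helix inhibitors ID2 (2.72 ± 0.098) and ID3 (1.88 ± 0.079) rose, whereas ID1 fell (−0.69 ± 0.077). The matricellular CCN1 rose by 2.23 ± 0.082, and the ligand TGFB2 fell (−0.99 ± 0.10). INHBA stood higher with ΔNp63α, at 9.97, 9.86 and 9.18 (−0.92 ± 0.19 between isoforms). In the list of EGF receptor ligands and ERK targets, 9 of 31 members rose (29%) and 8 fell (25.8%), beside 18.9% and 21% of all genes. The median of this list was 0.02. The ligands NRG1 (1.37 ± 0.19), TGFA (1.24 ± 0.13) and HBEGF (0.70 ± 0.15) rose. ETV5, an ERK-dependent factor, fell (−0.86 ± 0.10), and EGFR did not pass (−0.44 ± 0.17, adjusted p = 0.0668).

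Of 18 Notch pathway genes, 3 rose and 4 fell, and of 27 Wnt pathway genes, 6 rose and 6 fell, near the shares of all genes. Besides WNT4, the Wnt inhibitor DKK1 rose by 1.32 ± 0.11, and the inhibitor SFRP1 fell (−0.71 ± 0.15). HES1, a Notch target, rose by 0.61 ± 0.094 and HEY1, another, fell (−0.63 ± 0.098). Of 15 genes of IGF binding and signalling, 4 rose (26.7%) and 3 fell (20%), beside 18.9% and 21% of all genes.

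Genes of lipid synthesis and of the joint hypoxia and glycolysis list rose for the most part. For sterol and fatty acid synthesis, 16 of 23 genes rose and 1 fell, with a median of 0.84. HMGCS1, which makes hydroxymethylglutaryl-CoA, went from 8.08, 7.38 and 7.77 to 9.27, 9.76 and 9.60 (1.80 ± 0.20), and IDI1 (1.71 ± 0.08), the citrate lyase ACLY (1.41 ± 0.11) and INSIG1, which retains the sterol sensor (1.31 ± 0.22), rose. The transcription factor SREBF1 fell (−0.75 ± 0.13), and the desaturase SCD did not pass (0.02 ± 0.08). For hypoxia and glycolysis, 20 of 30 genes rose and 4 fell, with a median of 0.47. This count joins both kinds of gene, and the glycolytic enzymes GAPDH and GPI were not called. The glucose transporter SLC2A1 rose by 2.09 ± 0.082, NDRG1 by 2.29 ± 0.14 and ANGPTL4, an inhibitor of lipoprotein lipase, by 2.26 ± 0.095, whereas the angiogenic factor VEGFA (−0.64 ± 0.14) and the kinase PDK1 (−0.69 ± 0.094) fell. Of 44 oxidative phosphorylation genes, 10 rose (22.7%) and 9 fell (20.5%), near the 18.9% and 21% of all genes, and the median was −0.03. Of 29 NRF2 and metallothionein genes, 12 rose (41.4%) and 8 fell (27.6%), with a median of 0.10. The aldo-keto reductase AKR1B10 rose by 1.91 ± 0.11, GCLC, the catalytic subunit for glutathione synthesis, fell (−1.25 ± 0.099), and NQO1 fell (−0.47 ± 0.089).

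The direct comparison with ΔNp63α called 4247 of 11963 genes (35.5%), 2166 higher and 2081 lower with TAp63γ. The vector arrays do not enter this difference. Among the 10 largest excesses of TAp63γ were COL2A1, TAGLN and MYL9, described above, and NSG1, which was at 11.19, 10.86 and 10.96 with TAp63γ, 7.19, 7.15 and 6.75 with ΔNp63α and 6.60, 6.47 and 6.50 with the vector (3.97 ± 0.13 between isoforms). PPP2R2B, a regulatory subunit of protein phosphatase 2A, went from 4.82, 4.90 and 4.91 with the vector to 8.57, 8.53 and 8.76 (3.33 ± 0.081 between isoforms), HCAR3, a receptor for hydroxy acids whose near-identical neighbour can share its probes, differed by 3.11 ± 0.12, and SHROOM2, an actin-binding protein, by 2.96 ± 0.093. IL33, an alarmin cytokine, lay above the 20th percentile of 5.09 with ΔNp63α alone, at 6.73, 7.03 and 7.51. It was at 3.89, 3.90 and 3.92 with TAp63γ and 3.70, 3.66 and 3.68 with the vector. The isoform difference (−3.19 ± 0.15) may therefore be understated. TFPI2 and MMP1 did not pass (0.04 ± 0.12, adjusted p = 0.83, and 0.32 ± 0.15, adjusted p = 0.135).

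**Figure D5:**
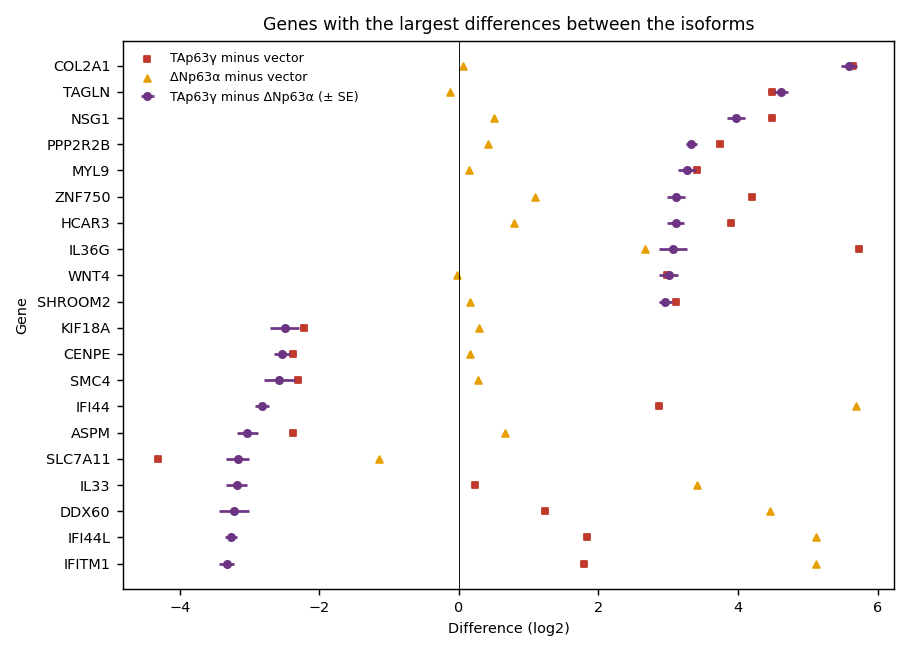
The 10 genes with the largest difference in each direction between TAp63γ and ΔNp63α are shown; circles are the log2 difference between the isoforms with its SE, red squares the change with TAp63γ against the vector and orange triangles that with ΔNp63α against the same vector. COL2A1, TAGLN, MYL9, WNT4 and SHROOM2 have ΔNp63α triangles near 0, and the interferon genes have both markers above 0.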

How the data were processed

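The deposited log2 expression values per probe set came from RMA, which the submitters' processing notes name; its version and settings were not given in the sources used here. RMA usually equalizes the arrays' distributions, so a shift of most transcripts one way would not be seen, and low levels are compressed. Of 22277 probe sets, 62 were array controls, 19064 had 1 symbol in the platform annotation, 1043 had several and 2108 had none listed. Of those with 1 symbol, 19052 matched RefSeq by Entrez identifier, and 0 symbols changed. Where a gene had several (4310 genes), the one highest on average over the 9 overexpression arrays was used. Among 1886 called genes with further probe sets, 1316 had another called in the same direction and 33 one called in the opposite direction.

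limma 3.58.1 in R 4.3.3 fitted a mean per group to the 9 arrays (6 residual and 4.57 prior degrees of freedom, variance trend, tests in both directions, Benjamini-Hochberg at 0.05), and was tested on simulated data. The knockdown arrays were left out because their spread was smaller (median residual SD 0.0825 against 0.114); fitting all 15 arrays was an alternative. Genes named were the 15 largest changes and 10 largest isoform differences in each direction (called, with separate arrays), and of 35 lists the preset anchor genes, up to 4 called members with the largest change in each direction and up to 2 uncalled members with the highest level; a gene named otherwise is said to be so. Members and lists were chosen with earlier results of these data known. Array numbers limit the precision. Promoters came from RefSeq.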

Additional observations from a re-analysis of the deposited data

Results flagged for a closer look

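Probe sets with several symbols or none listed, which the comparisons leave out, also carried signal. In the same limma fit over all probe sets, 982 of 3151 (31.2%) were called between TAp63γ and the vector, 374 higher and 608 lower. These were not assigned to genes.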

How the results depend on the processing

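Across 20 alternatives, the 4770 genes called for TAp63γ against the vector ranged from 4393 to 5180 under other sample sets, normalizations, probe set rules, filters and variance models, and from 3962 to 5114 when single arrays were left out. At least 2-fold rises ranged from 471 to 550 and from 505 to 539, and falls from 414 to 503 and from 427 to 587, respectively. The 4247 calls between isoforms ranged from 3799 to 4763 and from 3316 to 4275. The replicate block gave 4393 and 3799 calls; same-numbered TAp63γ and vector arrays deviated from their group means in opposite directions (correlations of −0.55, −0.62 and −0.11), so the numbers were not used as pairs. Of 377 named genes, 284 were called, and 34 of these lost the call under at least 1 alternative. Of these, IL6, ITGB1, MCL1 and FLG are named above, each with that loss. IL6 changed sign with values floored at the 20th percentile (−0.022, adjusted p = 0.314).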
